A study of Rattus norvegicus with 10 samples.

Results

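Oxidative phosphorylation (OXPHOS) is carried out by 5 protein complexes in the inner membrane of mitochondria, and the subject here is the mRNAs of their nuclear-encoded subunits in the rat spinal cord. The members were all mRNA probes whose RefSeq symbol starts with Ndufa, Ndufb, Ndufc, Ndufs, Ndufv, Uqcr, Cox4i, Cox5, Cox6, Cox7, Cox8 or Atp5, together with Sdha to Sdhd, and the Ndufaf assembly factors were left out. This gave 77 probes for 76 mRNAs of 75 genes, out of 13888 genes with a named mRNA probe, and among 15323 mRNA probes and 24684 probes in all. Of the 76 mRNAs, 75 were above background on enough arrays to be tested, and Cox8c, well above background in 1 MT rat and 0 NS rats, was not. RefSeq holds 110 protein-coding genes that fit the rule, and 35 of them had no member mRNA here. The subunits encoded by the mitochondrial genome, and nuclear subunits outside this rule, were not analysed here.

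The tissue was the lumbar enlargement of the spinal cord from male Sprague Dawley rats of 240 to 260 g. The morphine tolerance group (MT, rats 1 to 5) was injected intrathecally with 10 μg of morphine in 10 μl, 2 times daily for 7 days, and the normal saline group (NS, rats 6 to 10) was given 10 μl of saline on the same schedule. All rats thus received intrathecal injections, and tissue was taken after a further morning injection. Total RNA of each rat was hybridized to 1 one-colour array, so n = 5 in each group, and the comparison asks which RNAs differ in the cord after repeated morphine. Values are quantile-normalized log2 intensities, so a difference of 1 is a 2-fold difference in signal, and levels are compared between rats and not between probes.

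Complexes I to IV form the electron transport chain. Complex I takes electrons from NADH and complex II from succinate, and both pass them to ubiquinone. Complex III hands them to cytochrome c, and complex IV, cytochrome c oxidase, reduces oxygen to water. The proton gradient that complexes I, III and IV build drives complex V, the ATP synthase. Neurons rely on this pathway for the ion pumping that follows electrical activity, and their mitochondria reside in the cell body, dendrites, axons and terminals.

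The arrays had 3 scan times, and arrays sharing a scan time were taken as 1 slide. Slides were thus inferred and not read from a label. Slide 1 held 4 of the MT rats (1, 3, 4, 5). Slide 2 was the only mixed one, with MT rat 2 beside NS rats 6, 7 and 10, while slide 3 carried just NS rats 8 and 9. On slide 3, 63.8% and 58.6% of spots were well above background, against 77.4% to 83.9% on the other 8 arrays. Group and slide are therefore largely tied together, and the difference without slide 3 is given beside members whose value moved most when it was left out. In whole tissue, fewer cells of a type and less RNA per cell cannot be told apart. Of the marker lists, the 6 microglia markers, each well above background in every rat, all had lower means in MT, with a median log2 difference of −0.34, 4 of them at an unadjusted P below 0.05, beside 9.53% of all RNAs. Their mean level relative to all rats ranged from −0.58 to 0.10 in MT and from −0.11 to 0.43 in NS. The 7 neuron markers had a median difference of 0.10 and ranged from −0.06 to 0.11 in MT and from −0.20 to 0.06 in NS. All 4 motor neuron markers tested had higher means in MT, with a median of 0.29 and overlapping levels of −0.41 to 0.46 in MT and −0.58 to 0.28 in NS. None of them had an unadjusted P below 0.05. Isl1 was well above background in 5 MT and 3 NS rats, and Chat and Mnx1 were not tested. The 3 neutrophil markers tested of 5 also had higher means, with a median of 0.63 and a mean level of 0.19 to 0.72 in MT and −0.78 to −0.20 in NS, so that the groups did not overlap. Of these, Ngp was well above background in 4 MT rats and 1 NS rat, and S100a9 and Mmp8 were not tested. The part of these cell types in the OXPHOS values was not tested.

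The OXPHOS mRNAs differed little between the groups. No member of the 75 had an adjusted p below 0.05 in limma (Benjamini-Hochberg over 20284 RNAs), where 0.197% of all RNAs tested did, and the lowest value was 0.108 for Uqcrc2. No member met the study's criteria, an unadjusted P below 0.05 together with more than a 1.5-fold linear change, which 2.74% of all RNAs met. The median difference, MT minus NS, was 0.03 on the log2 scale over the 75 mRNAs, beside −0.0013 over all RNAs tested, and 45 members had a higher mean in MT and 30 a lower one. The difference was within 0.1 in either direction for 44 members and beyond 0.3 for 3, which were Uqcrc2, Uqcrq and Cox6b2. The 95% interval stayed within 1.5-fold in either direction for 71 of the 75 members (94.7%), beside 64.9% of all RNAs. The exceptions were Uqcrq, Cox6b2, Cox6a2 and Ndufb11. These intervals treat the arrays as independent and make no allowance for slide. The correlation estimated between arrays of the same slide was 0.46, and group and slide were largely tied together. The intervals thus describe the difference between these groups of arrays and do not bound an effect of morphine apart from slide. The spread within groups was small, with a median SD of 0.12 for the members and 0.21 for all RNAs. This was not particular to the members. In the other lists of energy metabolism given below, the median SD ranged from 0.10 (electron carriers and nucleotide exchange) to 0.17 (glycolysis). The share with an interval within 1.5-fold ranged there from 84.2% (glycolysis) to 100% (citric acid cycle and pyruvate dehydrogenase).

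At an unadjusted P below 0.05 in limma, 6 of 75 members were higher in MT, beside 6.84% of all RNAs, and 1 of 75 was lower, beside 9.53%. The same 7 mRNAs were the ones whose groups did not overlap, with every MT rat above every NS rat for 6 members (2.31% of all RNAs) and below for 1 (3.29%). The share of higher calls was near that of all RNAs. With the methods' t-test, 10 members had an unadjusted P below 0.05, beside 3308 of 20280 RNAs. After Benjamini-Hochberg adjustment 0 members passed, beside 57 RNAs. For scaling by the 75th percentile in place of quantile normalization, the split at an unadjusted P below 0.05 was 4 higher and 3 lower. Under this scaling 60.7% of all RNAs had a higher mean in MT, beside 49.8% with quantile normalization.

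**Figure D1:**
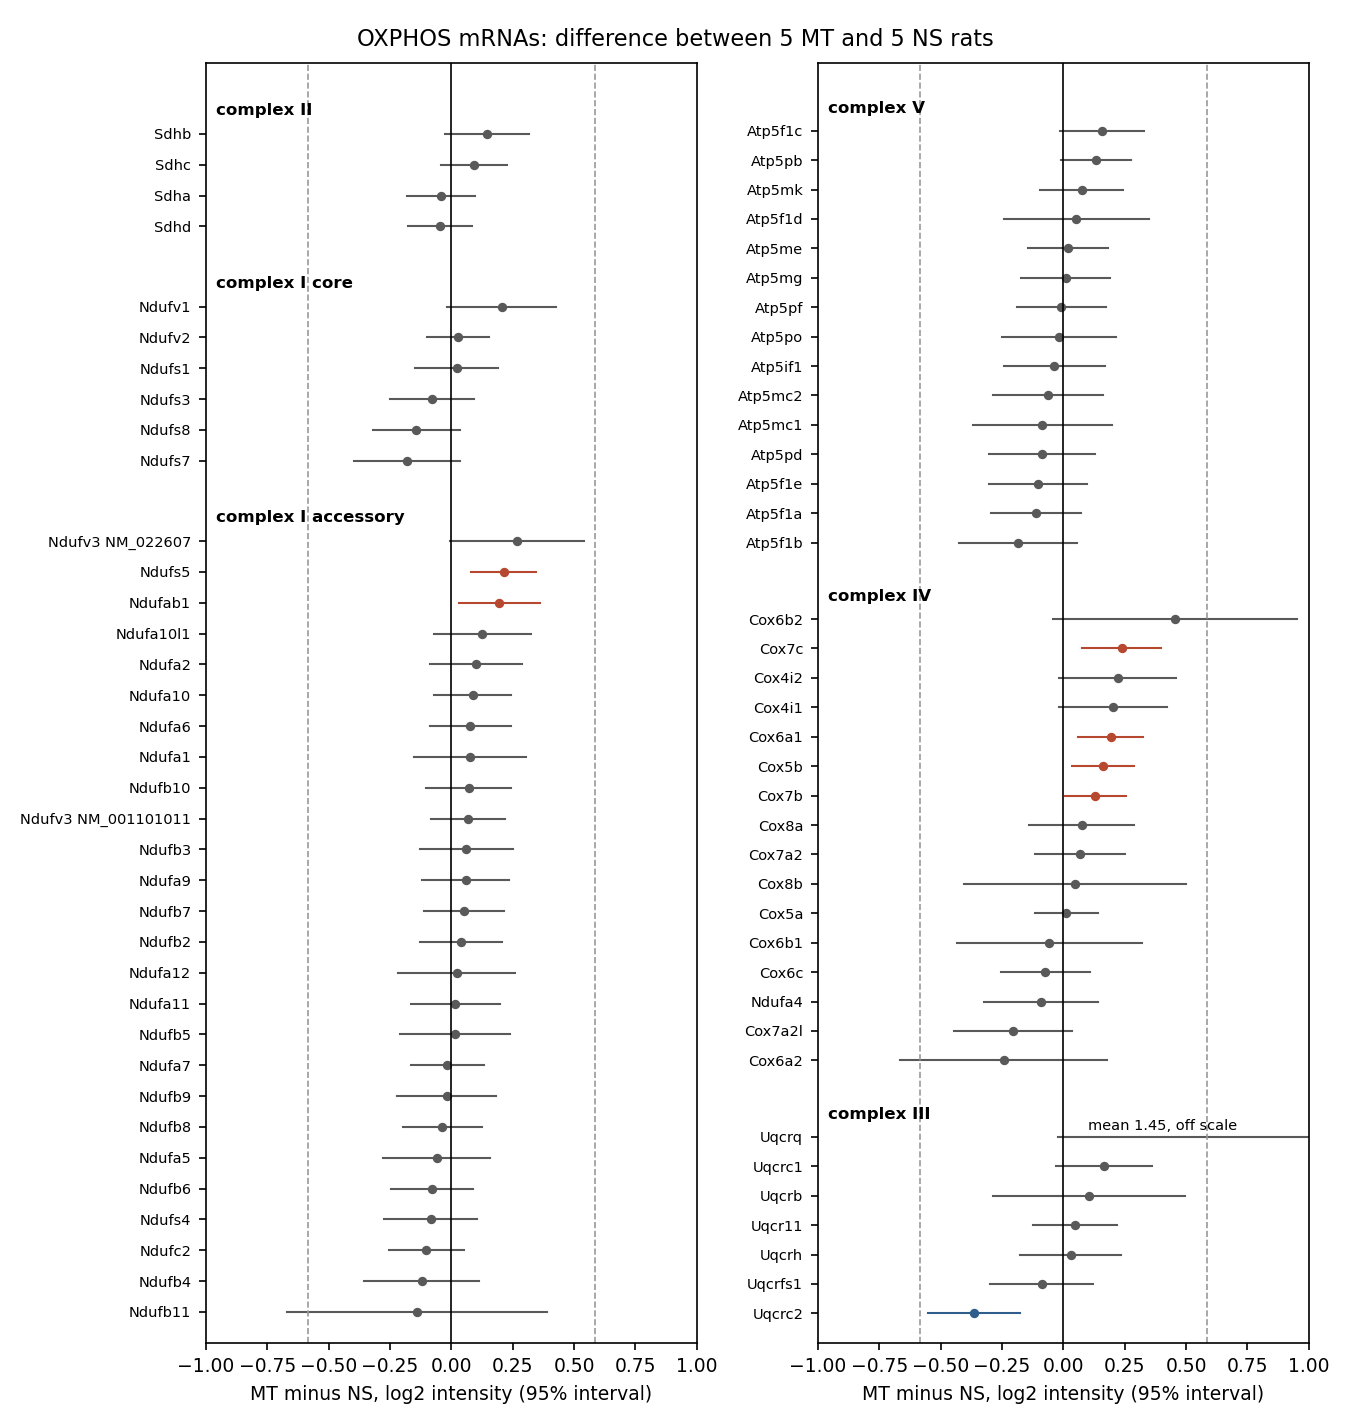
Difference between MT and NS for 74 of the 75 OXPHOS mRNAs tested, in log2 intensity on the horizontal axis, grouped by complex; points are mean differences, bars 95% intervals, and dashed lines mark 1.5-fold. Orange marks the 6 members higher in MT and blue the 1 lower at an unadjusted P below 0.05, and the mean of Uqcrq (1.45) lies beyond the axis.

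The lowest adjusted p was that of Uqcrc2, a core protein of complex III (chromosome 1, 184599240 to 184629804 in GRCr8, the RefSeq assembly). Its log2 intensity in MT rats 1 to 5 was 13.81, 14.11, 13.72, 13.84 and 13.80, and in NS rats 6 to 10 it was 14.26, 14.17, 14.30, 14.25 and 14.12. All MT rats were below all NS rats, although MT rat 2, the only MT rat on slide 2, lay next to the lowest NS rat. The means were 13.86 ± 0.15 and 14.22 ± 0.08 (SD, n = 5), a difference of −0.36 (SE 0.08, limma adjusted p = 0.108), or 1.29-fold lower in MT. The exact two-sided permutation p was 0.00794, the smallest that the assignments of 5 and 5 rats allow, and the other 6 members without overlap reached the same value. Groups of 5 and 5 without overlap always give this value, so it restates the lack of overlap. Within slide 2 the difference was −0.07 and without slide 3 it was −0.32. The adjusted p of Uqcrc2 ranged from 0.0435, without MT rat 2, to 1, with slide as a fixed block.

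The other members of complex III were mixed. Uqcrc1, its partner core protein, had a mean 0.17 higher in MT (limma adjusted p = 0.379), and its MT values of 13.85, 13.64, 14.02, 13.68 and 13.67 overlapped NS values of 13.58, 13.53, 13.68, 13.71 and 13.55. Uqcrfs1, the Rieske iron-sulfur protein, differed by −0.09 with all rats and 0.03 without slide 3, and Uqcr11 by 0.05 and 0.07. Uqcrb and Uqcrh, small subunits that border the ubiquinone and cytochrome c sites, differed by 0.11 and 0.03 with all rats and by −0.08 and 0.16 without slide 3. Uqcrb was at 9.13 and 9.11 in NS rats 8 and 9 and between 9.45 and 9.67 in the other NS rats. Of the 7 complex III members, 5 had a higher mean in MT and the median was 0.05.

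Uqcrq, another small complex III subunit, had the largest mean difference of all members and rested on the arrays of slide 3. Its values in MT rats 1 to 5 were 4.45, 4.17, 4.18, 4.80 and 4.61, and in NS rats 6, 7 and 10 they were 4.18, 4.03 and 4.32. NS rats 8 and 9 stood apart at 1.24 and 1.20, and on both of their arrays the probe was not well above background. The difference was 1.45 (SE 0.66, limma adjusted p = 0.312) with all rats, 0.27 without slide 3 and −0.01 within slide 2.

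Complex IV held 4 of the 6 members that were higher in MT at an unadjusted P below 0.05, out of 16 tested, beside 6.84% of all RNAs. Cox7c, a small nuclear-encoded subunit of the oxidase (chromosome 2, 18577145 to 18579170), had values of 14.28, 14.20, 14.26, 14.28 and 14.22 in MT rats 1 to 5. In NS rats 6 to 10 they were 14.11, 13.98, 13.84, 13.96 and 14.16. The groups were separated by 0.04, and the difference of the means was 0.24 (SE 0.07, limma adjusted p = 0.171).

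Cox6a1, the widely expressed form of a regulatory subunit (chromosome 12, 46922709 to 46925762), was at 15.21, 15.18, 15.25, 15.31 and 15.22 in MT and at 15.09, 15.00, 14.99, 14.99 and 15.13 in NS. The difference was 0.19 (SE 0.06, limma adjusted p = 0.178). Cox5b, a zinc-binding subunit on the matrix side (chromosome 9, 46417735 to 46419664), was at 14.97, 14.96, 14.90, 14.89 and 15.03 in MT and at 14.81, 14.74, 14.81, 14.75 and 14.83 in NS. Its difference was 0.16 (SE 0.06, limma adjusted p = 0.221). Cox7b, on chromosome X (75149036 to 75155285), was 0.13 higher (SE 0.06, limma adjusted p = 0.285), with MT rats from 14.45 to 14.52 and NS rats from 14.27 to 14.40. These were differences of 1.18-fold or less, and the widest distance between the lowest MT and the highest NS rat among the 4 mRNAs was 0.06.

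The same 4 mRNAs kept a higher MT mean without slide 3, with differences of 0.17 for Cox7c, 0.16 for Cox6a1, 0.15 for Cox5b and 0.10 for Cox7b. Within slide 2, MT rat 2 was above the mean of the 3 NS rats by 0.12, 0.11, 0.16 and 0.15 in the same order. That comparison has 1 rat on one side, and with slide as a fixed block none of the 4 had an unadjusted P below 0.05. The other complex IV members were mixed, and 11 of 16 had a higher mean in MT, with a median of 0.07. Cox7a2l, a protein that joins complexes III and IV, had the lowest P of those with a lower mean, with a difference of −0.20 (limma adjusted p = 0.377) that was −0.03 without slide 3. Cox6c differed by −0.07 and, without slide 3, by −0.01.

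Several complex IV subunits exist in a widely expressed form and a form typical of heart and skeletal muscle, lung or testis. Cox4i1 and Cox4i2, the common form and the form known from lung and from hypoxic cells, differed by 0.20 and 0.22 (limma adjusted p = 0.341 and 0.333), both with overlapping groups. Within slide 2 they differed by 0.02 and −0.03. Cox6a2, the muscle form of Cox6a1, ranged from 8.11 to 8.74 in MT and from 8.17 to 9.00 in NS, a difference of −0.24 (SE 0.19, limma adjusted p = 0.544) that was −0.04 without slide 3. The 12 skeletal muscle mRNAs tested had a median difference of 0.04, 8 higher and 4 lower, and their mean level relative to all rats ranged from −0.05 to 0.23 in MT and from −0.18 to 0.14 in NS.

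Cox8b, the muscle form of Cox8a, showed how the reading of a member turned on slide 3. In MT rats 1 to 5 it was at 6.47, 6.59, 6.30, 6.57 and 6.46, and in NS rats 6, 7 and 10 at 6.10, 6.24 and 6.02, so that these groups did not overlap. NS rats 8 and 9 were at 7.18 and 6.61, above every MT rat. The difference was 0.05 with all rats (limma adjusted p = 0.922) and 0.36 without slide 3 (limma adjusted p = 0.18). Cox6b1 and its testis form Cox6b2 went the other way on slide 3. Cox6b2 was at 10.28 and 10.43 in NS rats 8 and 9 and between 11.22 and 11.51 in the other 8 rats, and its difference of 0.46 (limma adjusted p = 0.341) became 0.07 without slide 3. Cox6b1 was at 9.65 and 9.66 in NS rats 8 and 9 and between 10.24 and 10.32 in the other NS rats, and its difference of −0.06 became −0.31. Cox7a2, the liver form known in most tissues, differed by 0.07, Cox8a by 0.08 and Ndufa4, a subunit once assigned to complex I, by −0.09. Without slide 3 these were −0.01, 0.18 and 0.04.

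**Figure D2:**
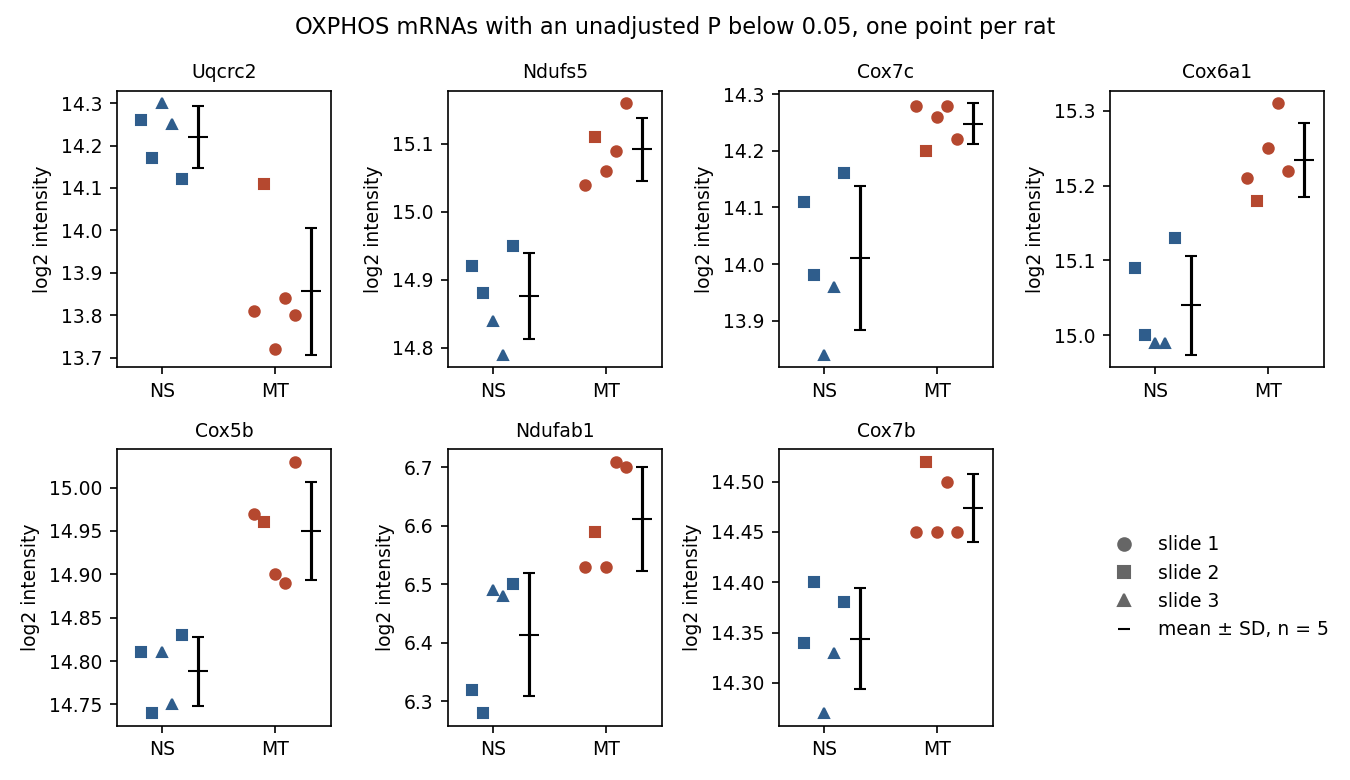
Log2 intensity of the 7 OXPHOS mRNAs with an unadjusted P below 0.05 in limma, one point per rat; blue is NS, orange is MT, the symbol gives the slide and the bar is the mean ± SD of 5 rats. The groups do not overlap in any panel, and the vertical axes differ between panels and do not start at 0; Uqcrc2 of MT rat 2 (14.11) lies next to NS rat 10 (14.12).

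Complex I has 7 core subunits among the members, some of which carry its flavin or iron-sulfur clusters, and 26 mRNAs of accessory subunits. None of the core subunits had an unadjusted P below 0.05, and 4 of 7 had a higher mean in MT. Ndufv1, which holds the NADH site, was 0.21 higher (limma adjusted p = 0.338), with MT rats at 11.36, 11.16, 11.59, 11.11 and 11.25 and NS rats at 10.97, 11.04, 11.18, 11.22 and 11.03. Ndufs7 and Ndufs8, which carry the last clusters before ubiquinone, were at −0.18 and −0.14. Both were highest in NS rats 8 and 9, and without slide 3 their differences were −0.05 and −0.04. Ndufs1, Ndufs3 and Ndufv2 lay between −0.08 and 0.03, and without slide 3 between 0.03 and 0.12.

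Of the accessory subunits, 17 had a higher and 9 a lower mean in MT, and 2 had an unadjusted P below 0.05. Ndufs5 (chromosome 5, 141258828 to 141264552) was at 15.04, 15.11, 15.06, 15.09 and 15.16 in MT rats 1 to 5 and at 14.92, 14.88, 14.84, 14.79 and 14.95 in NS rats 6 to 10. The distance between the lowest MT and the highest NS rat was the widest of any member. The difference was 0.21 (SE 0.06, limma adjusted p = 0.151), and it was 0.17 without slide 3 and 0.19 within slide 2.

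Ndufab1, the mitochondrial acyl carrier protein that also serves fatty acid and lipoate synthesis (chromosome 1, 186075933 to 186091843), was at 6.53, 6.59, 6.53, 6.71 and 6.70 in MT and at 6.32, 6.28, 6.49, 6.48 and 6.50 in NS. The difference was 0.20 (SE 0.07, limma adjusted p = 0.249). Its unadjusted P rose above 0.05 when MT rat 4, MT rat 5, NS rat 6 or NS rat 7 was left out. Cox7b lost the same threshold without MT rat 1, 2, 4 or 5 or NS rat 6, 8 or 9, and the other 5 mRNAs kept it in all 10 omissions.

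The array held 2 mRNAs of Ndufv3, a flavoprotein-module subunit. NM_022607 was 0.27 higher in MT (limma adjusted p = 0.311), where the MT rats ranged from 9.17 to 9.55 apart from MT rat 3 at 9.85. NM_001101011 was 0.07 higher (limma adjusted p = 0.631). The remaining accessory subunits lay between −0.14 (Ndufb11, which was well above background in 5 MT and 4 NS rats) and 0.13 (Ndufa10l1), and without slide 3 these were 0.13 and 0.19. Ndufc2, a membrane-arm subunit, differed by −0.10 (limma adjusted p = 0.483) and by −0.04 without slide 3.

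Complex II, succinate dehydrogenase, is shared with the citric acid cycle and has 4 subunits, all measured. Sdha, the flavoprotein, differed by −0.04 and Sdhd, a membrane anchor, by −0.05. Sdhb, the iron-sulfur protein, was 0.15 higher in MT (limma adjusted p = 0.373), at 13.35, 13.09, 13.46, 13.18 and 13.30 in MT and 13.13, 13.20, 13.12, 13.10 and 13.10 in NS. Sdhc, the other anchor, was 0.09 higher (limma adjusted p = 0.461, exact permutation p = 0.0317). Within slide 2 Sdhb differed by −0.05 and Sdhc by 0.04. The groups overlapped for all 4.

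Complex V was the only complex whose median was below 0 with all rats, at −0.02, with 6 of 15 members higher in MT and 9 lower, and none had an unadjusted P below 0.05. Atp5f1c, the central rotor subunit γ, was at 14.83, 14.85, 14.83, 14.76 and 14.81 in MT and at 14.77, 14.74, 14.54, 14.47 and 14.78 in NS, a difference of 0.16 (limma adjusted p = 0.342, exact permutation p = 0.0238). NS rats 8 and 9 were the lowest, and without slide 3 the difference was 0.05. Atp5pb, the stator subunit b, was 0.13 higher (limma adjusted p = 0.338, exact permutation p = 0.0317) and 0.09 higher without slide 3. The catalytic subunit β, Atp5f1b, was at 15.95, 16.05, 15.71, 16.05 and 15.99 in MT and at 16.01, 16.04, 16.44, 16.21 and 15.98 in NS, a difference of −0.18 (limma adjusted p = 0.421) that was −0.06 without slide 3. Atp5f1a, subunit α, differed by −0.11 and Atp5f1e, subunit ε, by −0.10, and without slide 3 by −0.04 and −0.01. Atp5mc1 and Atp5mc2, which encode the same mature c-ring protein, differed by −0.08 and −0.06, and Atp5if1, the inhibitory factor, by −0.04. These 3 turned sign without slide 3, to 0.12, 0.08 and 0.10.

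The saline rats of slide 3 stood apart from those of slide 2 for every complex V mRNA. Slide 3 held only NS rats 8 and 9, so slide, signal and animal cannot be told apart. In 12 of the 15, NS rats 8 and 9 of slide 3 were both above NS rats 6, 7 and 10 of slide 2, and in the other 3 both were below. Over all 75 members the counts were 41 above and 18 below, beside 38.1% and 24.9% of all RNAs. By complex, the counts above and below were 6 and 1 of 7 for the complex I core, 12 and 6 of 26 for its accessory subunits, 2 and 0 of 4 for complex II, 3 and 2 of 7 for complex III, and 6 and 6 of 16 for complex IV. Atp5mc1 was at 13.65 and 13.71 on slide 3 and at 13.17, 13.15 and 13.16 in the NS rats of slide 2, and Atp5f1d, subunit δ, was at 13.97 and 14.10 against 13.46, 13.50 and 13.58. The saline rats of these 2 slides thus differed by 0.52 for both genes, more than the difference between MT and NS of any member except Uqcrq.

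Without slide 3, which leaves 5 MT and 3 NS rats, the members shifted upward. The median became 0.08, beside 0.01 for all RNAs, and 54 of 75 members had a higher mean in MT. An unadjusted P below 0.05 was then found for 11 higher members, beside 8.81% of the 20280 RNAs tested, and for 2 lower members, beside 9.46%. The 11 were Ndufs5, Ndufab1, Ndufa12, Ndufv1, Uqcrh, Cox7c, Cox6a1, Cox5b, Cox8a, Cox8b and Atp5f1d, and the 2 were Uqcrc2 and Cox6b1. No member had an adjusted p below 0.05 in this comparison, where 2 of the 20280 RNAs did, and the lowest among the members was 0.18 for Cox8b. In complex V the median moved from −0.02 to 0.08, with 12 of 15 higher.

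**Figure D3:**
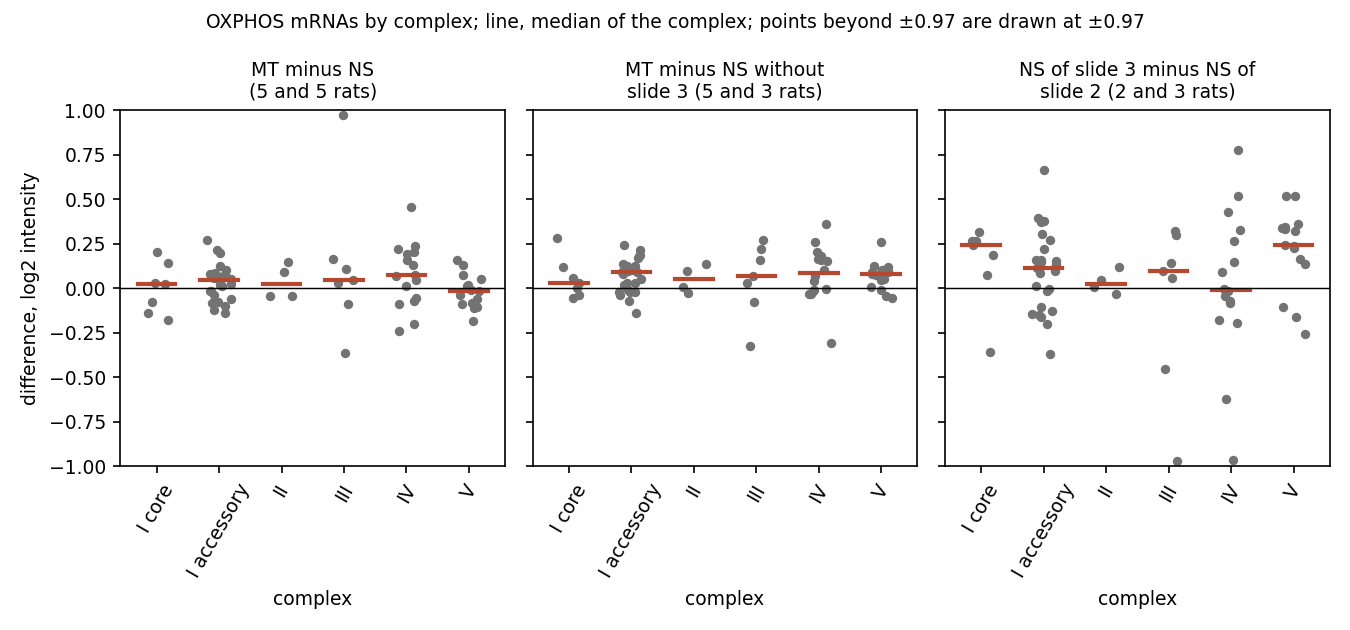
Differences in log2 intensity for the OXPHOS mRNAs by complex: MT minus NS in all rats, MT minus NS without slide 3, and the NS rats of slide 3 minus those of slide 2. Each point is an mRNA and each line the median of the complex, and points beyond the axis are drawn at its edge; complex V has a median of −0.02, 0.08 and 0.24 in the 3 panels.

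Each rat was also placed against the mean of all 10. The median deviation over the 75 members lay between −0.03 and 0.04 in the MT rats, between −0.07 and −0.05 in the NS rats of slide 2, and at 0.03 and 0.06 in NS rats 8 and 9. For all RNAs it lay between −0.02 and 0.01 in the 8 rats outside slide 3 and at 0.07 and 0.06 in NS rats 8 and 9. Over the 16 complex IV members the 5 MT rats lay between −0.01 and 0.08 and the 5 NS rats between −0.07 and −0.03. These groups did not overlap, with MT rat 3 at −0.01 nearest to NS rat 10 at −0.03. The 16 include the 4 mRNAs whose groups did not overlap, so this is not a separate result. In each of the other complexes the groups overlapped, and no test was run on these medians. Over the 15 complex V members NS rats 8 and 9 were at 0.19 and 0.15, while the remaining 8 rats lay between −0.10 and 0.04. MT rat 3 was the least like the others of its group, being the highest of the 10 rats for 11 members and the lowest for 20. It was highest for Ndufv1 (11.59), Uqcrc1 (14.02) and Cox4i1 (10.81) and lowest for Atp5f1b (15.71) and Uqcrb (9.00). NS rats 8 and 9 were each the highest for 18 and the lowest for 8 members.

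**Figure D4:**
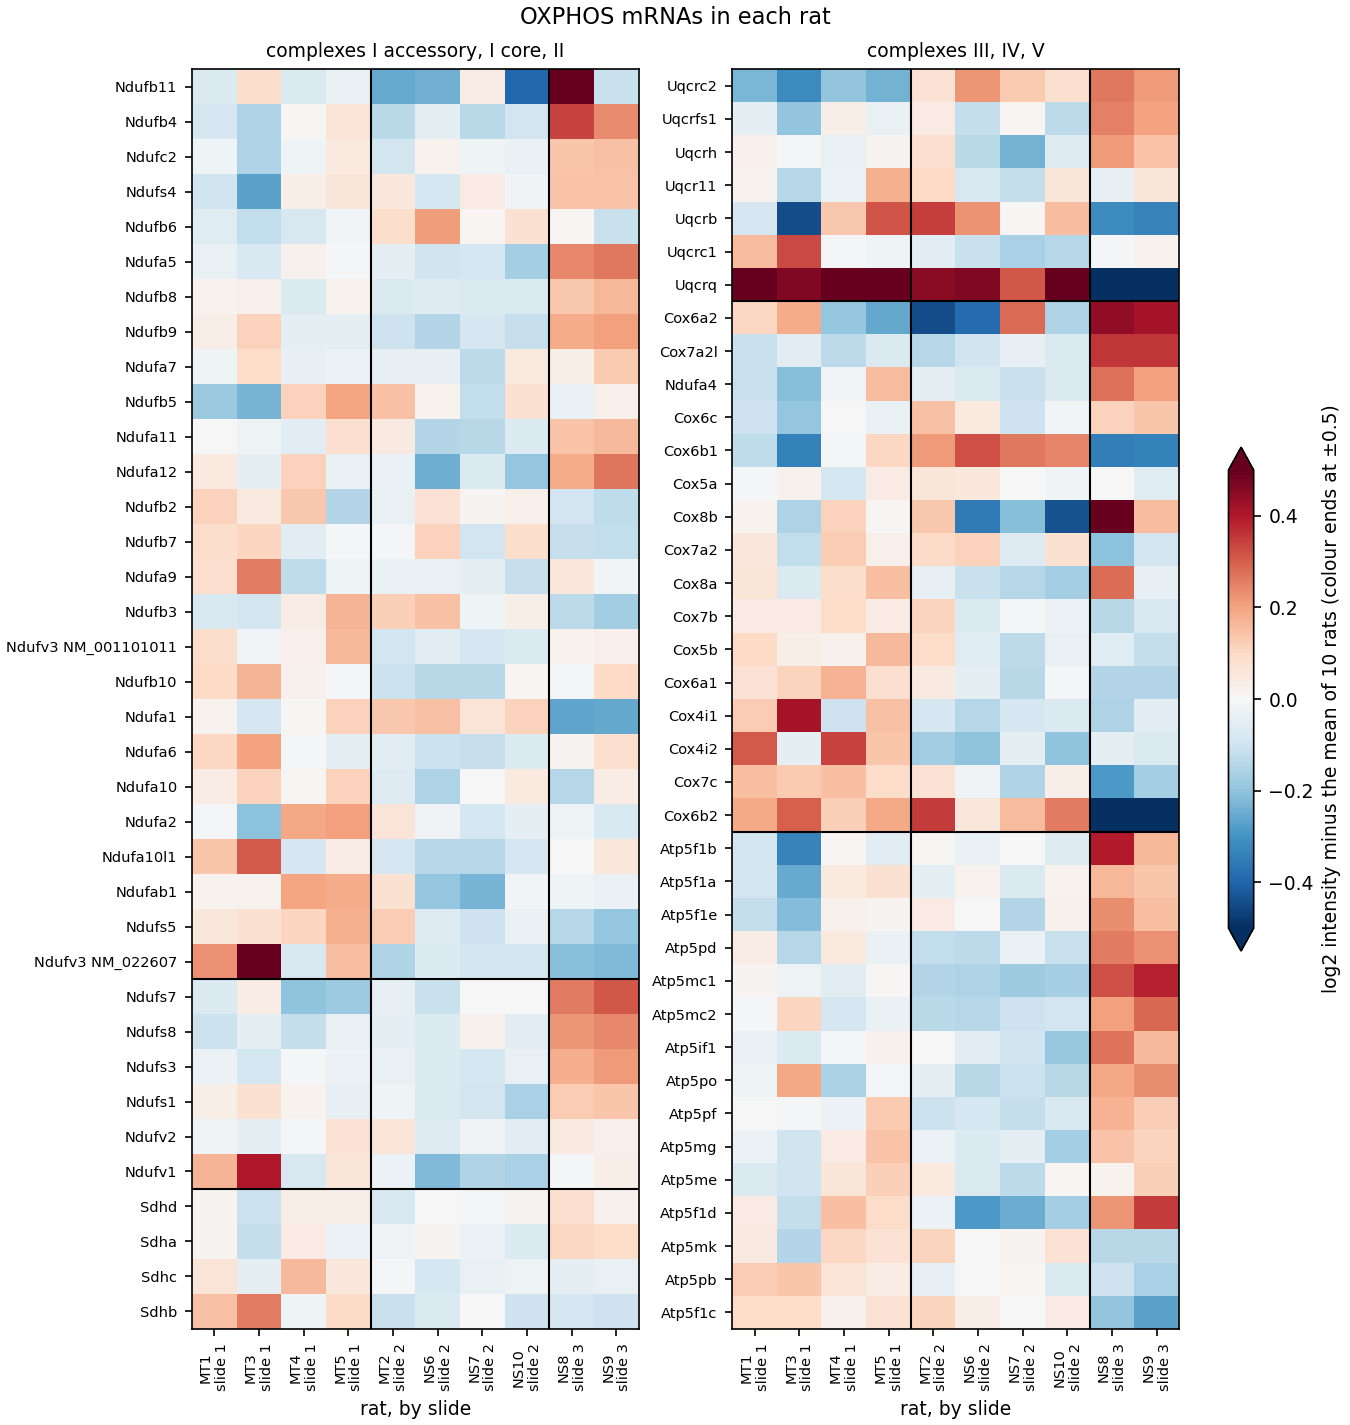
Log2 intensity of 74 OXPHOS mRNAs in each rat, as the difference from the mean of the 10 rats; red is above and blue below, rats are ordered by slide, and horizontal lines part the complexes. The columns of NS rats 8 and 9 are the most strongly coloured, mostly red in complex V and mixed in complex IV, where Cox6b2 is blue and Cox8b red.

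The member genes lie on 19 chromosomes, with 3 on chromosome X (Ndufa1, Ndufb11 and Cox7b). RefSeq names 85 pseudogenes after 37 of the 75 genes, and whether their probes also bind such copies was not tested. The 75 tested mRNAs rest on 1 spot per probe and array, except the second of the 2 Sdha probes, which has 10 spots.

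Promoter windows of 250 bases before to 50 bases after the RefSeq start were given for 66 of the 75 genes and were searched on both strands for the letters of 3 motifs known from nuclear genes of respiration. These were the NRF-1 core GCATGCGC, the ETS core CCGGAAG bound by the GABP factor, and the YY1 core AAGATGGC. The NRF-1 letters occurred in 9 of the 66 windows (13.6%, beside 3.11% of 21851 windows of protein-coding genes), the ETS letters in 20 (30.3% beside 10.7%) and the YY1 letters in 12 (18.2% beside 3.67%). At least 1 of the 3 was found in 30 windows (45.5% beside 16.1%), and the median GC content was 56.7% beside 55%. Letters for NRF-1 on both strands can overlap, since GCGCATGC is their reverse complement, and a window was counted once. Windows of leading members are shown so that the letters can be seen in place, for the lower mRNA Uqcrc2 and for 3 of the higher mRNAs, 5′ to 3′ on the gene's strand, with matches in capitals. Uqcrc2 (chr1:184598990-184599289, plus strand) holds the ETS letters in reverse 2 times and Cox5b (chr9:46417587-46417886, plus strand) has them 1 time. Ndufs5 (chr5:141264353-141264652, minus strand) and Cox7c (chr2:18579121-18579420, minus strand) hold none of the 3.
Uqcrc2: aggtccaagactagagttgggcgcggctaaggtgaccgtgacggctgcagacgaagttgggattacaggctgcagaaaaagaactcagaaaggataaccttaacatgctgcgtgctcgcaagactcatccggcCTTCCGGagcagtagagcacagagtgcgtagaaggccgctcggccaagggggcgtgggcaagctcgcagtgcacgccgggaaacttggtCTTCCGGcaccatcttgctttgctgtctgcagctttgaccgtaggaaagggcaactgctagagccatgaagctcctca
Cox5b: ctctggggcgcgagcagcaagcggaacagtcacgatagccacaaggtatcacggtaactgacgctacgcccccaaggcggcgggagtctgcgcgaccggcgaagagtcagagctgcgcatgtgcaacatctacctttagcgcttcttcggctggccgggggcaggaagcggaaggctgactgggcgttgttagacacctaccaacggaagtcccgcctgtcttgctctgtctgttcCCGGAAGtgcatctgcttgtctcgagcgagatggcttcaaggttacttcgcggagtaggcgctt
Ndufs5: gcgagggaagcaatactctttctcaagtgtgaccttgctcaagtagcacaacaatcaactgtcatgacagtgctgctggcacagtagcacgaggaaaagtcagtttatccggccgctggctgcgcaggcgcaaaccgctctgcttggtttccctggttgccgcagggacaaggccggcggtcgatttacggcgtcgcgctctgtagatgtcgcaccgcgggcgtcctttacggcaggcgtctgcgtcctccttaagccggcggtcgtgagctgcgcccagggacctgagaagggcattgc
Cox7c: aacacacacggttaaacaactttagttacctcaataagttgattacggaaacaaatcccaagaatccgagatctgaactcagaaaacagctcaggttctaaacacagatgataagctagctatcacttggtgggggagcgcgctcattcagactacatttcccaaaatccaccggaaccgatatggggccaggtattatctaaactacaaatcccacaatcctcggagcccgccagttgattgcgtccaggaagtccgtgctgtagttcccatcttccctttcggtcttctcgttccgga

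Lists of other genes of energy metabolism were likewise without a tested mRNA at an adjusted p below 0.05. They were measured in part, with 29 of 47 assembly factor genes, 58 of 78 mitochondrial ribosomal protein genes and 17 of 19 glycolysis genes tested. Of 30 mRNAs for assembly factors, which build the complexes but are not part of them, 10 had higher and 20 lower means in MT, with a median of −0.07, which was −0.02 without slide 3, with 14 of 30 higher. Counts at an unadjusted P below 0.05 were 2 higher and 3 lower, near the shares of all RNAs (6.84% and 9.53%). Cox19, which serves copper delivery to cytochrome c oxidase, ranged from 8.34 to 8.85 in MT and from 9.01 to 9.16 in NS, a difference of −0.41 (SE 0.10, limma adjusted p = 0.128). Timmdc1, a complex I assembly protein, differed by −0.26, from 11.62 to 11.65 in MT against 11.73 to 12.05 in NS, and by −0.16 without slide 3, and Coa3, a complex IV assembly protein, was 0.25 higher. Of 18 citric acid cycle and pyruvate dehydrogenase mRNAs, 10 had higher means, the median was 0.02, and none had an unadjusted P below 0.05.

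The regulators of mitochondrial gene expression gave 1 higher and 1 lower mRNA at an unadjusted P below 0.05 out of 13, near the 6.84% and 9.53% of all RNAs, with a median of −0.01. Gabpa, a subunit of the ETS factor GABP, ranged from 9.39 to 9.69 in MT and from 9.71 to 9.87 in NS, a difference of −0.21 (limma adjusted p = 0.205). Perm1, a regulator known from muscle, was 0.40 higher (limma adjusted p = 0.261) but was well above background in 5 MT and 3 NS rats, with overlapping values of 4.41 to 5.18 and 4.09 to 4.55. Ppargc1a, the coactivator PGC-1α, was 0.20 higher with a limma adjusted p of 0.354. Within slide 2 Gabpa, Perm1 and Ppargc1a differed by −0.04, 0.09 and 0.22. Of the 58 mitochondrial ribosomal protein mRNAs 38 had lower and 20 higher means, with a median of −0.05, and 2 were higher and 3 lower at an unadjusted P below 0.05, beside 6.84% and 9.53% of all RNAs. Without slide 3 the direction turned, with 34 of 58 higher and a median of 0.03, and in 37 of 58 NS rats 8 and 9 were both above the other NS rats. Mrpl47 differed by −0.29 and Mrpl16 by −0.15. Mrpl30 was 0.93 higher with all rats and 0.57 without slide 3, but was well above background in 4 MT rats and 1 NS rat. With all rats it met the study's criteria, as 2.74% of all RNAs did.

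Among 21 mRNAs for ubiquinone synthesis, electron carriers and nucleotide exchange, the median was 0.01 and 3 were higher at an unadjusted P below 0.05, beside 6.84% of all RNAs. Coq5, a methyltransferase of ubiquinone synthesis, was 0.27 higher (limma adjusted p = 0.15), and Coq3, another, was 0.19 higher with all rats and 0.11 without slide 3. Etfb, the electron transfer flavoprotein β subunit, was 0.68 higher with all rats and 0.17 without slide 3. With all rats it met the study's criteria, as 2.74% of all RNAs did. It ranged from 12.31 to 12.50 in MT and from 10.92 to 12.30 in NS. Among 19 glycolysis mRNAs the median was −0.0034, and 2 were higher at an unadjusted P below 0.05, beside 6.84% of all RNAs. Without slide 3 the median was 0.09, with 14 of 19 higher and 4 of them at an unadjusted P below 0.05, beside 8.81%. Pfkm, a phosphofructokinase, ranged from 14.31 to 14.47 in MT and from 13.98 to 14.22 in NS, a difference of 0.32 (SE 0.07, limma adjusted p = 0.093), and Eno2, the neuronal enolase, was 0.45 higher (adjusted p = 0.129). Within slide 2 Pfkm and Eno2 differed by 0.19 and 0.17. Ldha had 2 mRNA entries, at 0.27 and 0.18, with limma adjusted p = 0.306 and 0.322. Of 9 mRNAs for mitochondrial antioxidants 2 were higher at an unadjusted P below 0.05, beside 6.84% of all RNAs, namely Sod2, the manganese superoxide dismutase, by 0.31 (limma adjusted p = 0.158) and Gsr, glutathione reductase, by 0.27. Within slide 2 Sod2 and Gsr differed by 0.19 and 0.03. Ucp2 differed by −0.32 with a limma adjusted p of 0.471, and by −0.17 without slide 3.

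**Figure D5:**
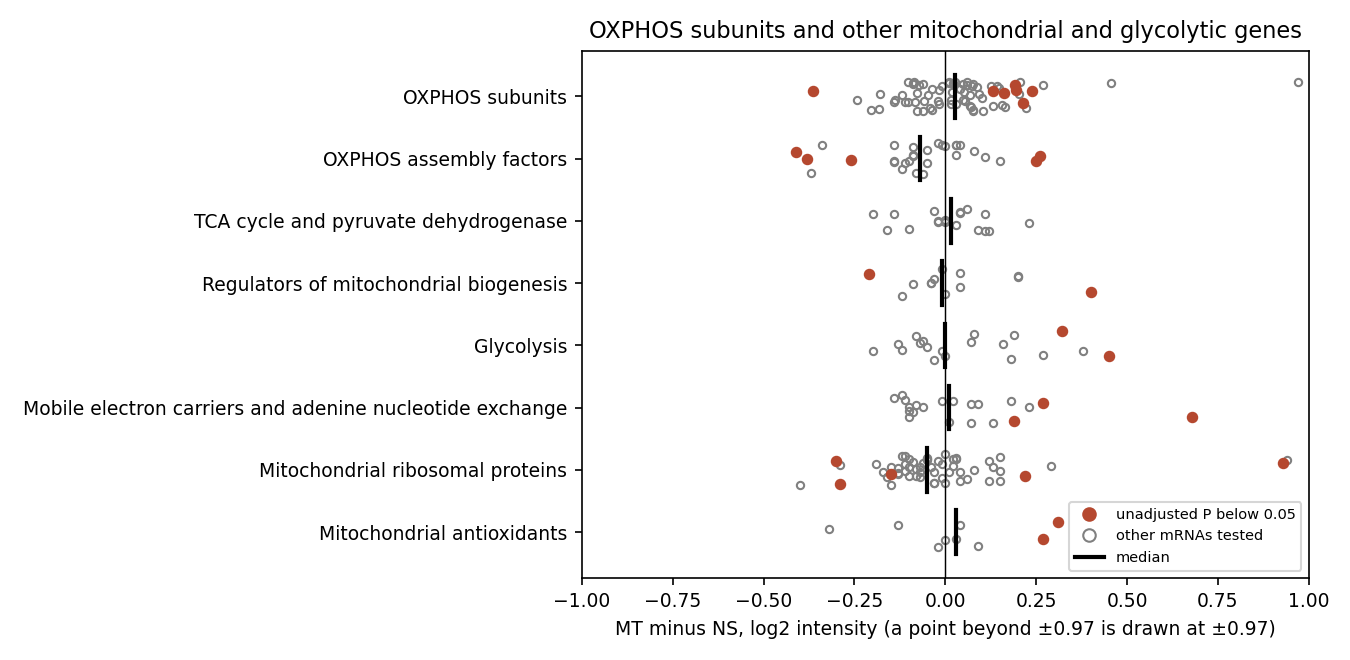
Difference between MT and NS in log2 intensity for each mRNA of the OXPHOS subunits and of 7 lists of other mitochondrial and glycolytic genes; filled points have an unadjusted P below 0.05 in limma and the vertical line is the median. With all 10 rats the medians lie between −0.07 and 0.03, and no point has an adjusted p below 0.05.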

How the data were processed

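Total RNA of 10 rats was measured on 1 one-colour array each. Scanner output deposited by the authors gave each spot's linear, background-subtracted intensity with quality flags (Agilent Feature Extraction 11.0.1.1, per the submitters' processing notes), and they also deposited a table of quantile-normalized log2 values for the 10 arrays, which served as an alternative. Groups came from the sample labels.

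From the intensities (floor of 1, lowest value 1.71), log2 values were made and quantile normalized in R 4.3.3 by limma (version 3.58.1; data.table version 1.17.8). Control and outlier spots were left out, spots were averaged per probe and probes per RNA accession. Probes needed 5 or more arrays with over 50% of spots marked well above background. MT was compared with NS by limma over 20284 RNAs, without covariates, with Benjamini-Hochberg adjustment over all of them. For single values, exact permutation tests (two-sided) ran over all assignments of 5 and 5 rats. The fold of the study's criteria was taken as linear (1.5). Intensities carry no counts, so precision rests on the number of arrays and on signal over background.

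The members and lists were chosen with earlier results of these data known. Named members are the 3 with the smallest P in each direction of each complex (core and accessory subunits of complex I as 1 complex), all Sdh subunits and the tissue isoforms with their partners, 35 mRNAs in all, and in each other list up to 3 with the smallest P. Cox7b and the other members named outside this rule were chosen after their values were seen. Symbols, positions and promoter sequences came from RefSeq (GRCr8), which named 14274 of 15323 mRNA probes. The array was designed on an older build, so positions are those of genes. Besides the marker lists given in the results, those for oligodendrocytes, astrocytes, fat and erythrocytes were summarised, with median log2 differences of 0.05, −0.06, 0.43 and −0.01. At an unadjusted P below 0.05, 2 of 4 fat mRNAs were higher, beside 6.84% of all RNAs, and both met the study's criteria (2.74% of all RNAs). Lower at that P were 2 of 7 astrocyte and 1 of 12 oligodendrocyte mRNAs, beside 9.53% of all RNAs. Arrays sharing a scan time were taken as 1 slide. Alternatives were 75th percentile scaling, normexp (offset 50, on median signals, since a mean signal was not in the files), the deposited table, other filters, the methods' t-test, a variance trend, array weights, slide as a block, slide 3 left out, each probe on its own and each rat left out. Among the members, 1 enters the counts and medians but is not reported by name here. The steps were tested on simulated data. Python 3.11.15 with matplotlib 3.10.9 drew the figures.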

Additional observations from a re-analysis of the deposited data

Results flagged for a closer look

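Of the values of each named member in each group of 5 rats, 72 groups in all, 1 held a rat set apart by Dixon's test at the 95% level, which chance gives in about 1 of 20 groups. Atp5mk, a small complex V subunit also known as DAPIT, was at 13.02 in MT rat 3 and between 13.21 and 13.28 in the other MT rats, with a gap of 0.738 of the range. The cause was not tested.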

How the results depend on the processing

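No named member that passed an unadjusted P of 0.05 reversed its direction under the alternatives tried. The count of members at an adjusted p below 0.05 stayed at 0 under all alternatives except the omission of single rats, where it ranged from 0 to 1. Uqcrc2 alone passed, without MT rat 2 (limma adjusted p = 0.0435). Over all RNAs this count was 40 in the main comparison, 2 without slide 3 and 0 with slide as a random block. A count of 0 members in such settings therefore says little about the members. The count past the study's criteria was 1 in the deposited table and with a variance trend, and ranged from 0 to 1 over the omissions (1 without NS rat 6, 7 or 10); the mRNA was Uqcrq. The count of higher members at an unadjusted P below 0.05 was 10 with normexp correction, 10 with a variance trend, 13 with array weights, 11 without slide 3, 3 with slide as a random block and 1 with slide as a fixed block, and from 4 to 10 over the omissions (10 without MT rat 2). The count of lower members was 3 with 75th percentile scaling, 2 with normexp correction, 2 without slide 3 and 0 with slide as a fixed block, and from 1 to 3 over the omissions (3 without NS rat 6). The median difference of all members was 0.08 without slide 3 and from 0.002 to 0.039 over the omissions. Over all RNAs, 147 had an adjusted p below 0.05 with normexp correction, 117 with a variance trend and 183 with array weights, beside 40 in the main comparison. At an unadjusted P below 0.05, 1421 RNAs passed with slide as a random block, beside 1388 higher and 1934 lower in the main comparison. Shifts of the member counts can thus not be told from shifts of the whole array. The cause of these shifts was not tested. With slide as a fixed block, which rests on 1 MT and 3 NS rats of slide 2, Uqcrc2 was at −0.07 and lost its unadjusted call, as did the other 6. Scaling by the 75th percentile moved the median of all RNAs to 0.07. Signal over background limits Uqcrq and Ndufb11, and with 5 rats a group and 1 spot per probe, differences of the size seen here, mostly under 0.1, could not be told from the spread between rats.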
